A study of Mus musculus with 8 samples.

Results

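The effect of culture on natural killer (NK) cells that lack CIS was measured as 2 in vitro libraries against 2 ex vivo libraries of CIS-null cells, chosen by their column names in the deposited count matrix. They are 4 of the 8 RNA sequencing libraries of the series, and the other 4 are wild-type NK cells, 2 in vitro and 2 ex vivo. The genotype is given as CIS-/- or wild type, the strain of all mice as C57BL/6, and the source of all cells as spleen, bone marrow and blood. Cells were purified with DX5 microbeads, which bind CD49b. The labels name no age, no treatment agent, no culture medium, cytokine or duration, no construct behind the null allele, and no animal or culture for each replicate, so the spread behind each p-value is that between libraries and may be technical only. The comparison covered all 13184 of the 27179 genes that had enough counts (at least 10 in a library of usual size in as many libraries as a group holds, and 15 in all). Levels below are in CPM, a gene's counts relative to library size, with library sizes adjusted by TMM (trimmed mean of M values).

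NK cells, a kind of innate lymphocyte, kill virus-infected and tumour cells with perforin and granzymes and secrete cytokines such as interferon gamma. They depend on interleukin-15, which signals through IL-2R beta, the common gamma chain, JAK1 and JAK3 to STAT5. CIS, encoded by Cish, is a SOCS family protein that is induced by this pathway and restrains it. Growth of NK cells in culture is usually driven by interleukin-2 or interleukin-15. Resting NK cells in tissues divide little, and they circulate by means of integrins, chemokine receptors and the sphingosine phosphate receptor S1PR5.

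The CIS-null libraries held 27424365 and 27168825 counts in vitro and 21485710 and 24889532 ex vivo, and the wild-type libraries 23097714 to 28065268. The first principal component of all 8 libraries took 86.9% of the variance and separated culture state. The second (6.05%) set the CIS-null in vitro libraries (−20.9 and −38.7) apart from the wild-type in vitro libraries (28 and 38.8). On it the ex vivo libraries lay at −24 and 5.63 (CIS-null) and 3.69 and 7.52 (wild type). The CIS-null ex vivo replicates stood apart on later components, replicate 1 on the third (2.2% of the variance) and replicate 2 on the fourth (1.78%). In CIS-null cells Cish itself, the targeted gene, had 21.2 and 17.2 CPM in vitro, against 1.29 and 2.64 CPM ex vivo. In wild-type cells it had 219.8 and 202 CPM in vitro and 9.26 and 9.12 CPM ex vivo, so the CIS-null libraries were lower in both states. Whether the remaining reads lie outside the deleted part is not given. NK cell markers were abundant in all 4 CIS-null libraries, summing to 34760 and 40590 CPM in vitro and 35640 and 33380 CPM ex vivo. The granzyme Gzma makes a large share of that sum, and without it, left out after its values were seen, the sum was 14430 and 14710 CPM in vitro, against 24160 and 23390 CPM ex vivo. A gene is called higher or lower here where edgeR's quasi-likelihood test gave a Benjamini-Hochberg adjusted p under 0.05 over all tested genes. Of 15 tested NK markers 2 were higher in vitro and 9 lower, beside 34.8% higher and 37.5% lower over all tested genes.

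Sex-linked transcripts separated the CIS-null libraries in the same way as culture. Xist, the RNA that silences an X chromosome in female cells, had 131 and 89.7 CPM in vitro, against 0.322 and 0.197 CPM ex vivo. The Y-linked genes Eif2s3y, Ddx3y, Kdm5d and Uty had at most 0.04 CPM in vitro and between 26.5 and 110.5 CPM ex vivo. In wild-type libraries Xist had 0 and 0.0351 CPM in vitro and 119.6 and 162 CPM ex vivo, the opposite order. The Y-linked genes were present in all 4 wild-type libraries, with Ddx3y at 79.3 and 82.6 CPM in vitro and 44.1 and 28.1 CPM ex vivo and Uty at 39.2 and 40.1 CPM in vitro and 11.2 and 7.06 CPM ex vivo. The wild-type ex vivo libraries thus held both Xist and Y-linked transcripts. Culture state and these transcripts therefore cannot be told apart within the CIS-null libraries. Of 429 tested genes on the X chromosome 70.2% were called changed, beside 72.4% of all tested genes.

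Most markers of other blood cells were lower in vitro, although a few abundant members of the lists were higher. Of 23 tested monocyte and macrophage markers 20 fell and 2 rose, Cd68 and Ccr2. Ccr2 lost its call in 8 of 21 alternative fits, among them library totals in place of TMM and the CIS-null libraries fitted alone. Its log2 fold change lay between 0.23 and 0.7 over the 21, with 0.27 without CIS-null in vitro replicate 2 and 0.23 without ex vivo replicate 2. The whole list summed to 1155 and 1411 CPM in vitro, against 1491 and 1074 CPM ex vivo. Without Cd68 and Ccr2 it summed to 6.98 and 6.85 CPM in vitro, against 406.9 and 269.8 CPM ex vivo. Csf1r, the receptor for macrophage growth factor, had 0.0385 and 0 CPM in vitro, against 65.3 and 47.2 CPM ex vivo, and the complement genes C1qa and C1qc were at 0 counts in vitro, against 20.3 to 35.6 CPM ex vivo. Of 23 tested B and plasma cell markers 20 fell and none rose by edgeR's or DESeq2's test, nor at an unadjusted p under 0.05. With limma-voom 14 were called lower and 0 higher. The summed level of that list was 120.0 and 121.1 CPM in vitro, of which Ighm made 87.5 to 91.7 CPM, against 1222 and 413.4 CPM ex vivo. The plasma cell gene Igj showed how far the ex vivo replicates could differ, at 0.0385 and 0 CPM in vitro, against 98.3 and 7.47 CPM ex vivo. It lost its call with limma-voom (limma-voom adjusted p = 0.104). Of 15 tested platelet and erythroid markers 12 fell and 1 rose (Car2, a carbonic anhydrase). The whole list summed to 1084 and 1211 CPM in vitro, against 279.9 and 316.5 CPM ex vivo. Car2 had 1083 and 1211 CPM in vitro, against 242 and 250.5 CPM ex vivo, and without Car2, left out after its values were seen, they summed to 0.887 and 0.561 CPM in vitro, against 37.9 and 66.1 CPM ex vivo. Members at 0 counts in both in vitro libraries included Ms4a1, Cd22, C1qa, C1qc, Ppbp and Pf4. Counts were 0 in 1 state for 8 of 23 B and plasma cell markers and 7 of 23 monocyte and macrophage markers. The same held for 6 of 15 platelet and erythroid markers. Without Ighm, B and plasma cell markers still summed to 28.3 and 33.7 CPM in vitro, against 736.5 and 210.5 CPM ex vivo. In bulk RNA, fewer cells of a type and less RNA per cell cannot be told apart. The part of these transcripts in each group of lower genes described below was not tested.

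The change on culture was broad. Of 13184 genes 4594 were higher in vitro (34.8%) and 4945 were lower (37.5%), together 9539 (72.4%). At least 2-fold, 2479 rose and 2732 fell, and at least 8-fold, 562 rose and 812 fell. The median log2 fold change over all tested genes was −0.05, and the 10th and 90th percentiles were −2.01 and 1.71. The in vitro libraries did not overlap the ex vivo libraries for 5463 genes that were higher (41.4%) and 5803 that were lower (44.0%). Counts of list members below are to be read against 34.8% higher and 37.5% lower. Most members named below were chosen for a large called change or for abundance. The gap between states in a named gene thus follows in part from that choice.

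**Figure D1:**
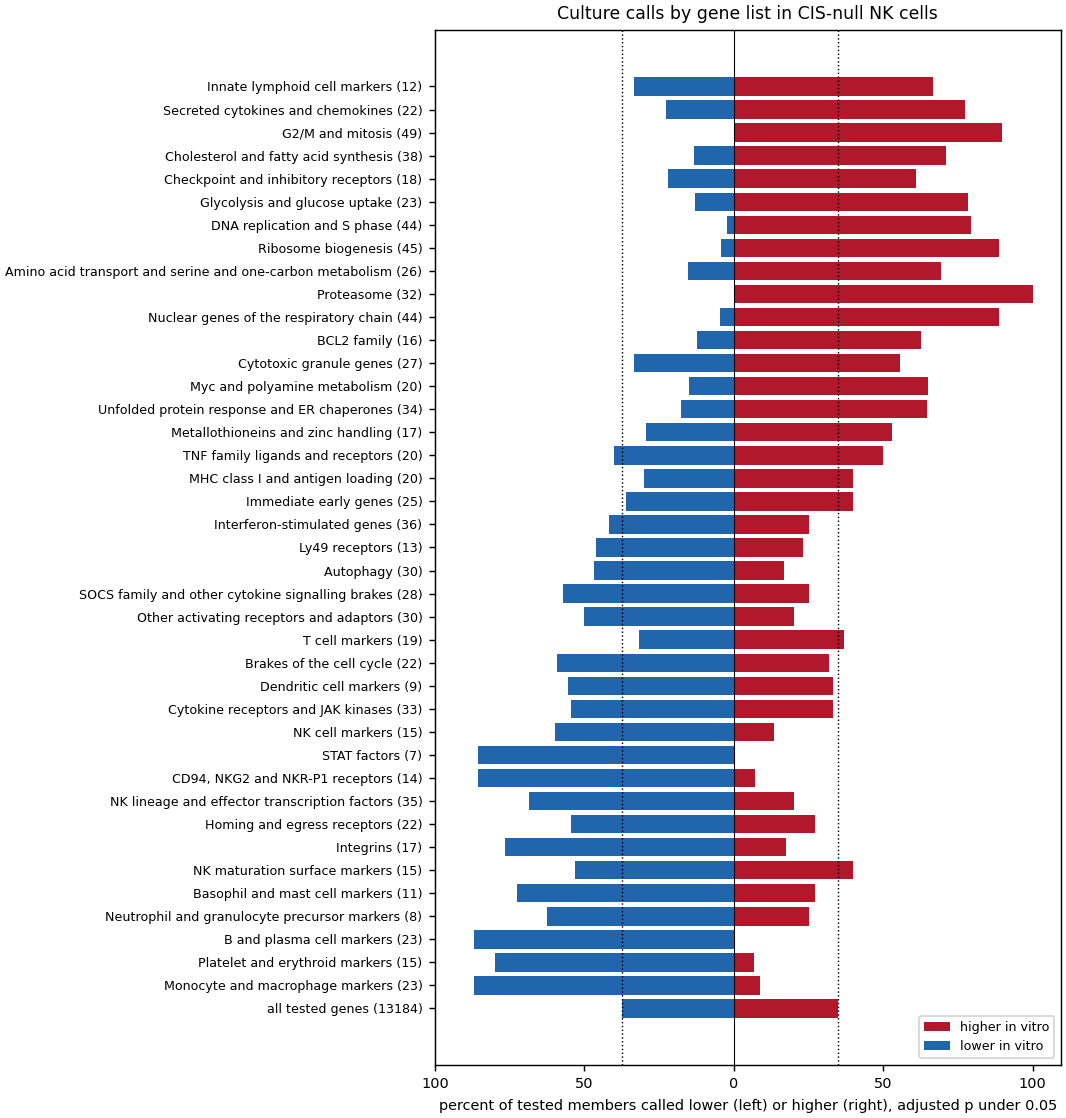
Percent of the tested members of each gene list called lower (left, blue) or higher (right, red) in CIS-null in vitro over CIS-null ex vivo libraries, with the number tested in brackets. Lists run from the highest median log2 fold change at the top, and dotted lines mark the shares over all 13184 genes (34.8% higher, 37.5% lower). All 32 proteasome genes were higher, and 20 of 23 B and plasma cell markers and of 23 monocyte and macrophage markers were lower.

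The genes with the largest rise include several granzymes, the chemokine Ccl1, the metallothionein Mt2 and the growth regulator Mycn, beside genes of other functions. They were picked among called genes with a mean of at least 20 CPM over the CIS-null libraries and no overlap between states. Sex-linked genes, predicted genes and immunoglobulin or T cell receptor segments were left out. Gzmd, Gzme, Gzmf and Gzmg, serine proteases of cytotoxic granules, had no counts in either ex vivo library. In vitro they had 716 and 1543 CPM (Gzmd), 288 and 597 CPM (Gzme), 213 and 479.6 CPM (Gzmg) and 35.3 and 87.9 CPM (Gzmf). Against a floor of 3 counts over the ex vivo group, Gzmd was at least 17600-fold higher and Gzmf at least 960-fold. In all 4, in vitro replicate 2 held more than 2 times the level of replicate 1, and the ex vivo libraries held none. These genes are close paralogs, and how reads shared between them were counted is not stated, so the split among them is uncertain. Dsc2, a desmosomal cadherin, had 129.9 and 155 CPM in vitro, against 0 and 0 CPM ex vivo, at least 2230-fold higher, so it too was seen in vitro only. Mycn, a MYC family transcription factor, had 60.6 and 62 CPM in vitro, against 0 and 0.0393 CPM ex vivo. With 1 count over the ex vivo group its ratio was 2890, with a 95% counting interval of 518 to 114000. Such ratios rest on a handful of ex vivo counts. Ccl1, a chemokine for CCR8, had 277 and 246 CPM in vitro, against 0.138 and 0.0393 CPM ex vivo. Scin, which severs actin filaments, had 570.2 and 505 CPM in vitro, against 0.322 and 0.236 CPM ex vivo, and Ahrr, the repressor of the aryl hydrocarbon receptor, had 113 and 132 CPM in vitro, against 0.0921 and 0.118 CPM ex vivo. Dpep2, a membrane dipeptidase, had 54.7 and 69.4 CPM in vitro, against 0.0461 and 0.0787 CPM ex vivo. Levels of Gzmc and Mt2 are given further below. That every in vitro library lay above every ex vivo library was a condition of this choice.

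By the same rule, the genes with the largest fall are led by regulators of circulation and by genes of other blood cells. S1pr5, by which NK cells leave bone marrow and lymph nodes, had 0.0771 and 0.200 CPM in vitro, against 528 and 684 CPM ex vivo, and its log2 fold change was -12.06 ± 0.26 (SE; edgeR adjusted p = 3.62e-08). Klf2, a transcription factor of quiescence and lymphocyte trafficking, had 1.27 and 1.20 CPM in vitro, against 591 and 707 CPM ex vivo (log2 fold change -9.03 ± 0.30, SE; edgeR adjusted p = 2.11e-07). Cx3cr1, the fractalkine receptor of mature NK cells and monocytes, had 0.0771 and 0.0400 CPM in vitro, against 105 and 275 CPM ex vivo. Non-overlap of the states was a condition of this choice too, and the ex vivo replicates differed by more than 2 times for Cx3cr1. Cma1, a chymase transcribed in mature mouse NK cells, had 0.424 and 1.24 CPM in vitro, against 424 and 414 CPM ex vivo. As3mt, an arsenite methyltransferase, had 0.231 and 0.160 CPM in vitro, against 237 and 207 CPM ex vivo, and Cmah, which makes the sialic acid Neu5Gc, had 0.154 and 0.120 CPM in vitro, against 71 and 71.3 CPM ex vivo. St5, a regulator of small GTPases, fell likewise, at 0.270 and 0.240 CPM in vitro, against 78.6 and 110.5 CPM ex vivo. Slc40a1, the iron exporter, and Cdh22, a cadherin, had no counts in vitro and were at 127 and 66 CPM and 47.8 and 53.2 CPM ex vivo, at least 1600-fold and 860-fold lower. Csf1r, Igj and Vcam1, the remaining 3 of the 12, are markers of macrophages or plasma cells given above or, for Vcam1, at 0.0385 and 0.0400 CPM in vitro, against 82.9 and 50.2 CPM ex vivo.

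**Figure D2:**
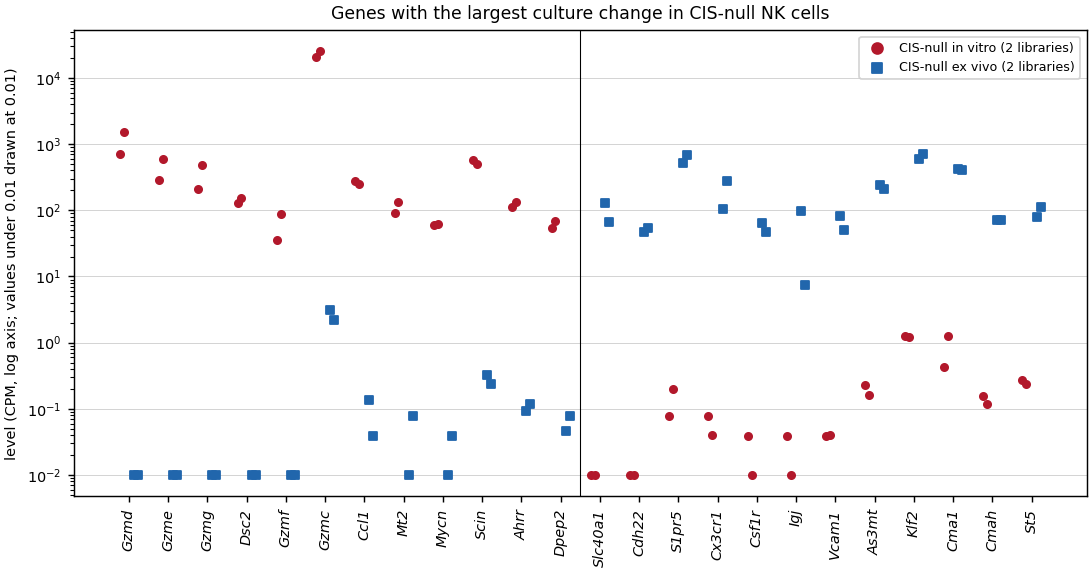
Level in each CIS-null library of 12 genes that rose (left of the line) and 12 that fell (right), in CPM on a log axis. They had the largest changes among called genes with a mean of at least 20 CPM, sex-linked and predicted genes left out. Red circles are the 2 in vitro and blue squares the 2 ex vivo libraries, in vitro to the left within each gene, and values under 0.01 are drawn at 0.01. Non-overlap of the states was a condition of this choice. Igj differs the most between ex vivo replicates among the 12 genes that fell (98.3 and 7.47 CPM).

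Abundant genes with no call included Actb, Il2rb, Shisa5, Cdc42 and Tyrobp. Il2rb, the beta chain of the receptors for interleukin-2 and interleukin-15, had 4175 and 3609 CPM in vitro, against 4041 and 4617 CPM ex vivo. Its log2 fold change was -0.15 ± 0.11 (SE; edgeR adjusted p = 0.25), and the groups overlapped. Tyrobp, the adaptor DAP12, had 1567 and 1821 CPM in vitro, against 2002 and 1573 CPM ex vivo. Actb and Il2rb gained a call with limma on the deposited log2 RPKM (counts per kilobase and library size). Shisa5 and Tyrobp gained a call once each library's trend with gene length was removed.

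Granule genes changed unequally. Of 27 tested genes for cytotoxic granules 15 rose and 9 fell, with a median log2 fold change of 0.69. Gzmb, the granzyme that activates caspases, had 24149 and 24977 CPM in vitro, against 986 and 1006 CPM ex vivo (log2 fold change 4.62 ± 0.13, SE; edgeR adjusted p = 1.14e-07). Gzmc had 20687 and 25187 CPM in vitro, against 3.09 and 2.20 CPM ex vivo (log2 fold change 13.09 ± 0.30, SE; edgeR adjusted p = 3.62e-08). Gzma, already the most abundant granzyme ex vivo, had 20326 and 25875 CPM in vitro, against 11474 and 9993 CPM ex vivo (log2 fold change 1.11 ± 0.15, SE; edgeR adjusted p = 0.000214). The 3 granzymes took 6.52% and 7.6% of the scaled counts of the in vitro libraries, against 1.25% and 1.1% ex vivo. Levels per kilobase of exon, which allow genes to be compared, were 23150 and 29470 in vitro and 13070 and 11380 ex vivo for Gzma. They were 17030 and 17610 in vitro and 695.2 and 709.3 ex vivo for Gzmb, and 22150 and 26970 in vitro and 3.30 and 2.36 ex vivo for Gzmc. The 3 granzymes were thus near each other in vitro, while Gzma led ex vivo. Prf1, the pore-forming perforin, went the other way, at 1290.3 and 1181 CPM in vitro, against 2300.4 and 2631 CPM ex vivo (log2 fold change -1.0 ± 0.11, SE; edgeR adjusted p = 8.07e-05). Gzmm, another granzyme, also fell, to 2.54 and 2.56 CPM in vitro, against 33.7 and 26 CPM ex vivo. The machinery of granule release fell in part: Lyst, a regulator of lysosome size, had 17.8 and 12.9 CPM in vitro, against 49.6 and 72.1 CPM ex vivo, and Unc13d, which primes granules for fusion, had 120.3 and 103 CPM in vitro, against 175 and 188 CPM ex vivo. Tnfsf10, the death ligand TRAIL, rose to 315 and 286 CPM, against 35.2 and 40.4 CPM ex vivo. With limma on the deposited log2 RPKM (counts per kilobase and library size), which were made alike in distribution across libraries, the change of Gzma was no longer called and had the other sign (log2 difference −0.07).

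Secreted factors rose more often than not: 17 of 22 tested cytokine and chemokine genes were higher and 5 lower, with a median log2 fold change of 2.24. Spp1, the matrix and cytokine-like protein osteopontin, had 2883 and 4070.2 CPM in vitro, against 4.01 and 5.15 CPM ex vivo (log2 fold change 9.56 ± 0.36, SE; edgeR adjusted p = 3.12e-07). Xcl1, the chemokine that draws cross-presenting dendritic cells, had 2655 and 2832 CPM in vitro, against 172 and 156 CPM ex vivo (log2 fold change 4.06 ± 0.11, SE; edgeR adjusted p = 1.07e-07). Lymphotoxin genes rose too, Lta to 7.75 and 6.65 CPM, against 1.15 and 0.629 CPM ex vivo, and Ltb to 293 and 271 CPM, against 124 and 81.3 CPM ex vivo. Ccl5, a chemokine stored in resting NK cells, fell to 814 and 578 CPM in vitro, against 5030.0 and 4695 CPM ex vivo (log2 fold change -2.80 ± 0.16, SE). Csf1, Ccl9, Osm and Il16 were the other 4 that fell, and Csf1 and Ccl9 are also made by myeloid cells.

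Cell cycle genes rose together. Of 49 tested G2/M and mitosis genes 44 were higher and none lower by edgeR's or DESeq2's test or at an unadjusted p under 0.05, with a median log2 fold change of 2.21, beside −0.05 over all genes. Among mitotic cyclins, Ccnb1 had 27.3 and 32 CPM in vitro, against 2.03 and 2.36 CPM ex vivo, and Ccnb2 had 112 and 124 CPM in vitro, against 7.05 and 12.4 CPM ex vivo. Cdk1, the kinase that both cyclins activate, had 102 and 129 CPM in vitro, against 8.98 and 13.3 CPM ex vivo (log2 fold change 3.36 ± 0.19, SE; edgeR adjusted p = 1.81e-06). Ube2c, which loads ubiquitin for the anaphase-promoting complex, had 86.7 and 88.9 CPM in vitro, against 4.05 and 8.97 CPM ex vivo, and Top2a, the topoisomerase that untangles chromosomes, had 172 and 137 CPM in vitro, against 27.1 and 67.9 CPM ex vivo. Both ex vivo libraries were below both in vitro libraries in 46 of the 49 genes, beside 41.4% of all tested genes. Ex vivo replicate 2 was above replicate 1 in 45 of the 49, and the share over all genes was not counted. The 5 members with no call were Mki67, Cenpf, Incenp, Smc2 and Smc4. Mki67, the gene of the Ki-67 antigen, had 25.5 and 21 CPM in vitro, against 6.13 and 20.4 CPM ex vivo, so that in vitro replicate 2 and ex vivo replicate 2 were nearly alike. The change in log2 terms, 0.80 ± 0.42 (SE; edgeR adjusted p = 0.121), became 1.93 and passed without ex vivo replicate 2, and was 0.19 without ex vivo replicate 1. Cenpf, a kinetochore protein, passed in 7 of 21 alternative fits, DESeq2 and limma-voom among them, with log2 fold changes of 0.34 to 1.77 over the 21, and of 1.6 without ex vivo replicate 2. Smc2, a condensin subunit, passed in 2 of the 21: once the length trend was taken out, and when ex vivo replicate 2 was dropped. Its partner Smc4 was called lower without in vitro replicate 1 (−0.68) or ex vivo replicate 1 (−0.65). In wild-type cells all 49 members rose, with a median of 2.69. edgeR's interaction test called a difference between genotypes in 0 of the 49. At an unadjusted p under 0.05 it found 9 of the 49, beside 19.6% of all tested genes. DESeq2 called the interaction in 5 of the 49, beside 219 higher and 374 lower of all 13184 genes.

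DNA replication and S phase genes rose as well, 35 of 44 tested members being higher and 1 lower, with a median log2 fold change of 1.20. Tk1, the thymidine kinase of S phase, had 39.3 and 51.4 CPM in vitro, against 2.99 and 4.45 CPM ex vivo (log2 fold change 3.59 ± 0.21, SE; edgeR adjusted p = 2.23e-06). Rrm2, the regulated subunit of ribonucleotide reductase, had 156 and 165 CPM in vitro, against 11.5 and 22.3 CPM ex vivo, and Gins2, a part of the replicative helicase, had 22.7 and 29.9 CPM in vitro, against 2.81 and 2.91 CPM ex vivo. Mcm5, another helicase subunit, had 251 and 262 CPM in vitro, against 121 and 132 CPM ex vivo, a smaller rise (log2 fold change 1.02 ± 0.10, SE). The member that fell was Cdt1, the licensing factor that loads the helicase, at 24.8 and 24.8 CPM in vitro, against 56.4 and 51.5 CPM ex vivo (log2 fold change -1.12 ± 0.12, SE).

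Promoters of these genes are shown because cell cycle genes share known control elements and moved together here. The windows of chr9:70421525-70421714 (Ccnb2, minus strand), chr10:69352883-69353072 (Cdk1, minus strand) and chr8:75109349-75109538 (Mcm5, plus strand) come from RefSeq on GRCm38.p6, written 5′ to 3′ from 160 bases before to 30 bases after the annotated start. Capitals mark CCAAT boxes (CCAAT) and cell cycle homology regions (CHR, TTTGAA) on either strand for Ccnb2 and Cdk1, and E2F-like matches (TTTNNCGC) for Mcm5.
Ccnb2: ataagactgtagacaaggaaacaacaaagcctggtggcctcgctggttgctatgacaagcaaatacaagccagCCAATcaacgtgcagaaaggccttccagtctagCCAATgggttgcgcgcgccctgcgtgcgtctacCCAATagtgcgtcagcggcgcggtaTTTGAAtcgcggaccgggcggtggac
Cdk1: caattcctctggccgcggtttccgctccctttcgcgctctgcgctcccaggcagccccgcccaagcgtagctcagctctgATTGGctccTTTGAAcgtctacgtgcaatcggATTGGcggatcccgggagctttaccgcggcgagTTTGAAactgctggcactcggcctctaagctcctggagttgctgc
Mcm5: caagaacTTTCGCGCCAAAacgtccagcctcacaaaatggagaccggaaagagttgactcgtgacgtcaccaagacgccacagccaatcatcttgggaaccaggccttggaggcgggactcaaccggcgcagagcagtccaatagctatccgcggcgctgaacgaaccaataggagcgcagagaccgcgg
In Ccnb2 the CCAAT boxes began at −87, −54 and −21 and a CHR at 5, where 1 is the start. Mcm5 held 2 E2F-like matches on opposite strands that overlap each other, beginning at −153 and −149. Over the whole window of 250 bases before to 50 after the start, a CHR was found in 28 of the 40 G2/M genes with a promoter in the table (70.0%), against 12.3% of the promoters of all tested genes. CCAAT boxes were found in 75% of the G2/M promoters, against 39.2% of all, and E2F-like matches in 14 of 35 DNA replication promoters (40%), against 8.71% of all. Of promoters of all genes that rose at least 2-fold 15.9% held a CHR, and of those of genes that fell at least 2-fold 10.4%. A match of letters is not a site of binding.

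Brakes of the cell cycle moved in both directions, 7 of 22 being higher and 13 lower. The inhibitor genes of cyclin-dependent kinases split: Cdkn2a had 35.5 and 34.1 CPM in vitro, against 0.0461 and 0.0787 CPM ex vivo, and Cdkn1a, which encodes p21, had 144 and 135 CPM in vitro, against 7.60 and 11 CPM ex vivo. Cdkn2d fell to 49.5 and 54.6 CPM, against 150.3 and 165 CPM ex vivo. Tob1, an antiproliferative factor, had 24.4 and 20.1 CPM in vitro, against 68.5 and 55 CPM ex vivo. Once the trend with gene length was removed 9 were lower, with a median log2 fold change of −0.05 in place of −0.47.

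**Figure D3:**
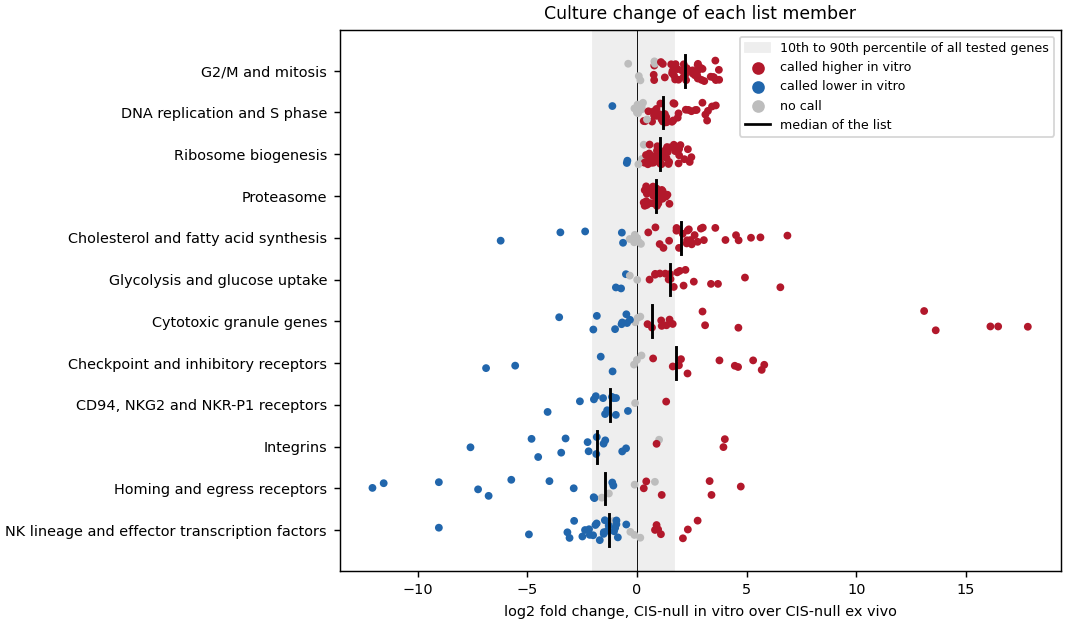
Log2 fold change of every tested member of 12 gene lists, CIS-null in vitro over CIS-null ex vivo. Each point is a gene, red where called higher, blue where called lower and grey with no call, black bars are list medians, and the band spans the 10th to 90th percentile of all tested genes (−2.01 to 1.71). G2/M genes have a median of 2.21 and integrin genes a median of −1.83.

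Genes of growth and protein synthesis were mostly higher. In the list of Myc and polyamine metabolism 13 of 20 rose and 3 fell. Odc1, which makes the first polyamine, putrescine, had 336 and 391 CPM in vitro, against 40.6 and 31.7 CPM ex vivo (log2 fold change 3.33 ± 0.14, SE; edgeR adjusted p = 4.7e-07). Srm, which makes spermidine, had 117 and 120.1 CPM in vitro, against 11.1 and 13.1 CPM ex vivo. Eif5a, the translation factor that carries hypusine made from spermidine, had 1717 and 2006 CPM in vitro, against 668 and 535 CPM ex vivo. The members that fell were Mxd1 and Mxi1, which compete with MYC for its partner MAX, and Sat1, which starts polyamine breakdown, at 39.7 and 52.3 CPM in vitro, against 114 and 72.3 CPM ex vivo. The log2 fold change of Sat1 was −0.65 without ex vivo replicate 1, in place of -1.02. Ribosome biogenesis factors rose in 40 of 45 cases and fell in 2, with a median log2 fold change of 1.06. The pair that fell, Ddx10 and Ubtf, lost their calls once the trend with gene length was removed (log2 fold changes −0.23 and 0.04), and Ubtf also without CIS-null in vitro replicate 2 (−0.32) or ex vivo replicate 2 (−0.22). Nop58, a core protein of small nucleolar ribonucleoproteins, had 188 and 197 CPM in vitro, against 48.2 and 49.1 CPM ex vivo, and Npm1, nucleophosmin, had 482 and 605 CPM in vitro, against 197 and 142 CPM ex vivo. Transcripts of ribosomal proteins took 3.85% and 4.7% of in vitro counts, against 2.33% and 1.61% ex vivo.

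Every one of the 32 tested proteasome genes rose, by log2 fold changes with a median of 0.87. Psma7, an alpha ring subunit, had 329 and 414 CPM in vitro, against 157 and 127 CPM ex vivo, and Psmb1, a beta ring subunit, had 502 and 622 CPM in vitro, against 315 and 239 CPM ex vivo. Of 44 nuclear genes of the respiratory chain 39 rose and 2 fell, with a median of 0.86. Atp5b, of the ATP synthase, had 1761 and 1933 CPM in vitro, against 955 and 873 CPM ex vivo, whereas Sdha, of complex II, fell to 277 and 252 CPM, against 341 and 354 CPM ex vivo, and Ndufa4 to 80.6 and 104 CPM, against 212 and 178 CPM ex vivo. Short genes rose more often than long genes in these libraries. With the trend with gene length removed, the proteasome median was 0.50 with 29 of 32 higher, and the respiratory chain median 0.46 with 34 of 44 higher.

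Amino acid supply genes rose in 18 of 26 cases and fell in 4, with a median log2 fold change of 1.01. Asns, asparagine synthetase and a target of the stress factor ATF4, had 43.2 and 58.3 CPM in vitro, against 0.138 and 0.315 CPM ex vivo (log2 fold change 7.74 ± 0.39, SE; edgeR adjusted p = 1.08e-06). Slc7a5, a chain of the transporter for large neutral amino acids, had 138 and 131 CPM in vitro, against 19.8 and 16.6 CPM ex vivo. Mthfd2, a mitochondrial enzyme of one-carbon metabolism, had 49.7 and 54 CPM in vitro, against 7.46 and 8.73 CPM ex vivo. The related list of the unfolded protein response had 22 of 34 members higher and 6 lower, with a median of 0.55 (3 lower once the length trend was removed). Hspa5, the chaperone BiP, had 1223 and 1230.5 CPM in vitro, against 555 and 675 CPM ex vivo, while Ern1, the sensor IRE1, fell to 43.2 and 26.4 CPM, against 77.1 and 94.9 CPM ex vivo, and Ddit3, the stress factor CHOP, to 9.94 and 9.33 CPM, against 20.3 and 23.2 CPM ex vivo.

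Glycolysis genes rose in 18 of 23 cases and fell in 3, with a median log2 fold change of 1.5. Hk2, an inducible hexokinase, had 92.2 and 73.4 CPM in vitro, against 2.90 and 2.56 CPM ex vivo (log2 fold change 4.92 ± 0.31, SE; edgeR adjusted p = 3.32e-06). Aldoc, an aldolase, had 132 and 187 CPM in vitro, against 1.66 and 1.77 CPM ex vivo. Ldha, lactate dehydrogenase, had 1659.9 and 2036 CPM in vitro, against 428 and 369 CPM ex vivo, and Slc16a3, which exports lactate, had 166 and 173 CPM in vitro, against 13 and 13.2 CPM ex vivo. These 4 genes were eligible by a large called change or by abundance, so their separation adds no support of its own. Pfkp, a phosphofructokinase, fell to 219 and 225 CPM, against 352 and 381 CPM ex vivo. Hk1, the widely expressed hexokinase, fell to 164 and 127 CPM, against 188 and 223 CPM ex vivo. The call on Hk1 was lost without in vitro replicate 2 (log2 fold change −0.32) or ex vivo replicate 2 (−0.37), and once the trend with length was taken out (−0.07).

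Cholesterol and fatty acid synthesis genes had 27 of 38 members higher and 5 lower, with a median log2 fold change of 2.0. Sqle, an early rate-limiting enzyme of sterol synthesis, had 119 and 131 CPM in vitro, against 2.35 and 2.68 CPM ex vivo (log2 fold change 5.63 ± 0.12, SE; edgeR adjusted p = 3.62e-08). Fdps, which makes farnesyl pyrophosphate for the pathway, had 45.3 and 56 CPM in vitro, against 2.26 and 2.16 CPM ex vivo. Fads2, a desaturase of fatty acids, had 20.9 and 29.3 CPM in vitro, against 0.0921 and 0.315 CPM ex vivo. The sterol exporters went the other way: Abca1 had 1.85 and 2.04 CPM in vitro, against 166 and 123 CPM ex vivo (log2 fold change -6.21 ± 0.27, SE; edgeR adjusted p = 5.71e-07). Abcg1 had 22.7 and 17.5 CPM in vitro, against 209 and 244 CPM ex vivo. Acly, which makes cytosolic acetyl-CoA from citrate, fell too, at 309 and 277 CPM in vitro, against 456 and 488 CPM ex vivo. Hmgcs1, an early enzyme of the mevalonate pathway, had 252 and 303 CPM in vitro, against 46.3 and 51.9 CPM ex vivo, and its promoter is shown as the example of the list that holds a sterol response element. The window is chr13:119690191-119690380 (plus strand, RefSeq, GRCm38.p6, 160 bases before to 30 after the start), and capitals mark the sterol response element (TCACNCCAC) and CCAAT boxes.
Hmgcs1: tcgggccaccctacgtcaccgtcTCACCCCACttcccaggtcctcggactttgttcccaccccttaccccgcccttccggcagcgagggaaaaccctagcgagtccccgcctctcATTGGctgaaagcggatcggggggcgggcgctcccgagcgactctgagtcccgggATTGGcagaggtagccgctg
That element was found in 1 of the 27 promoters of the list (3.7%), against 1.01% of all tested genes' promoters, and CCAAT boxes in 21 of 27 (77.8%), against 39.2%.

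Receptors of NK recognition fell more often than they rose. Of 14 genes for CD94, NKG2 and NKR-P1 receptors 12 were lower and 1 higher (Klri1), with a median log2 fold change of −1.25. Klrg1, an inhibitory receptor of mature NK cells, had 19.1 and 22.2 CPM in vitro, against 309 and 386 CPM ex vivo (log2 fold change -4.07 ± 0.26, SE; edgeR adjusted p = 3.39e-06). Klrk1, the activating receptor NKG2D, had 485 and 543 CPM in vitro, against 1607 and 1389.6 CPM ex vivo, and Klrb1c, the NK1.1 antigen, had 1295 and 1469 CPM in vitro, against 4192 and 3369.8 CPM ex vivo. In these genes the in vitro libraries were near each other and well below ex vivo. Ncr1, the natural cytotoxicity receptor NKp46, had 476 and 542 CPM in vitro, against 1788 and 1884 CPM ex vivo. Among 30 other activating receptors and adaptors 15 fell and 6 rose. Syk, a kinase downstream of such receptors, had 19.2 and 15.7 CPM in vitro, against 273 and 349 CPM ex vivo, and Cd2, an adhesion receptor, had 54.5 and 63.6 CPM in vitro, against 581 and 486 CPM ex vivo. Fcgr3, the Fc receptor CD16, rose to 299 and 359 CPM, against 150.1 and 96.7 CPM ex vivo, and Crtam, a receptor of nectin-like ligands, to 145 and 122 CPM, against 63.6 and 47.2 CPM ex vivo. Slamf6 and Btk, which B cells also express, fell to at most 1 count in vitro.

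The Ly49 receptors, which bind MHC class I, moved in both directions: 3 of 13 rose, 6 fell and 4 had no call, with a median log2 fold change of −0.12. Without CIS-null in vitro replicate 2 the counts were 1 higher and 7 lower, with a median of −1.5. Klra5 had 142 and 135 CPM in vitro, against 13.1 and 12.2 CPM ex vivo (log2 fold change 3.45 ± 0.14, SE; edgeR adjusted p = 4.25e-07). Klra8, the activating receptor Ly49H, fell to 327 and 442 CPM, against 1223 and 955 CPM ex vivo. Klra9 fell to 217 and 277 CPM in vitro, against 897 and 710.4 CPM ex vivo. Klra7 had 714 and 874 CPM in vitro, against 558 and 416 CPM ex vivo, with no call (edgeR adjusted p = 0.0557). Klra7 passed in 7 of 21 alternative fits, with log2 fold changes of 0.33 to 0.93 and adjusted p of 0.00437 to 0.274 over all 21. The 7 included the fits without CIS-null ex vivo replicate 1 (0.93) and without wild-type in vitro replicate 1 (0.73) or 2 (0.71). These genes are paralogs, so reads could be split between them and the values are uncertain.

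Checkpoint and inhibitory receptors rose in 11 of 18 tested genes and fell in 4, with a median log2 fold change of 1.77. Havcr2, the receptor TIM-3, had 42.8 and 44.9 CPM in vitro, against 0.737 and 0.944 CPM ex vivo (log2 fold change 5.69 ± 0.29, SE; edgeR adjusted p = 1.07e-06). Lag3, which binds MHC class II, had 261 and 221 CPM in vitro, against 8.52 and 11.2 CPM ex vivo (log2 fold change 4.61 ± 0.20, SE; edgeR adjusted p = 4.7e-07). Cd200r1, the receptor of CD200, had 149 and 163 CPM in vitro, against 2.39 and 3.15 CPM ex vivo, and Lilrb4 had 199.9 and 212 CPM in vitro, against 5.02 and 5.43 CPM ex vivo. All 4 were eligible by a large called change or by abundance, so the size of the gap is part of the choice. Cd96, a receptor that competes for CD155, was already abundant ex vivo, at 605 and 613 CPM in vitro, against 182 and 142 CPM ex vivo. Lair1, a collagen receptor, was among the 4 that fell, at 22.8 and 27 CPM in vitro, against 56.1 and 51.3 CPM ex vivo. Pdcd1 had too few counts to be tested. In the TNF family 10 of 20 rose and 8 fell, or 5 fell without CIS-null in vitro replicate 2. Tnfrsf9, the costimulatory receptor 4-1BB, had 1945 and 2316 CPM in vitro, against 136 and 142 CPM ex vivo (log2 fold change 3.94 ± 0.12, SE), and Tnfsf11, RANK ligand, had 17.3 and 19.6 CPM in vitro, against 0.599 and 0.315 CPM ex vivo. Cd27, a costimulatory receptor lost on mature NK cells, fell to 27.2 and 25.6 CPM, against 129 and 99.1 CPM ex vivo.

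Along the cytokine pathway that CIS restrains, receptor chains, kinases, STAT factors and brakes moved differently. The receptor and JAK list had 11 of 33 members higher and 18 lower, with a median log2 fold change of −0.90. Il2ra, the alpha chain that makes the interleukin-2 receptor high in affinity, had 102 and 66.8 CPM in vitro, against 1.66 and 2.36 CPM ex vivo (log2 fold change 5.38 ± 0.27, SE; edgeR adjusted p = 1.06e-06). The common gamma chain gene Il2rg had 696 and 605 CPM in vitro, against 790.4 and 753 CPM ex vivo, with no call (edgeR adjusted p = 0.0639). Il2rg was called lower with library totals and with the length trend removed. Its log2 fold change lay between −0.50 and −0.14 over 19 alternative fits. Jak1, the kinase bound to the beta chain, fell to 522 and 409 CPM, against 2275 and 2562 CPM ex vivo (log2 fold change -2.38 ± 0.14, SE; edgeR adjusted p = 2.06e-06). Receptors of other cytokines diverged. Il12rb1, of the interleukin-12 receptor, had 295 and 246 CPM in vitro, against 43.4 and 53.1 CPM ex vivo, and Il21r had 293 and 247 CPM in vitro, against 39.7 and 49.8 CPM ex vivo. By contrast Il18r1, of the interleukin-18 receptor, had 71.8 and 71.2 CPM in vitro, against 460.0 and 449.7 CPM ex vivo, and Il7r had 0.540 and 0.881 CPM in vitro, against 53.2 and 31.2 CPM ex vivo. Il1r2, the decoy receptor of interleukin-1, had 15.6 and 18.1 CPM in vitro, against 0 and 0 CPM ex vivo, at least 265-fold higher against a floor of 3 counts over the ex vivo group. Csf2rb, a receptor chain of myeloid cells, was at 0.116 and 0.240 CPM in vitro, against 11.3 and 5.59 CPM ex vivo.

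None of the 7 STAT genes rose by edgeR's or DESeq2's test or at an unadjusted p under 0.05, and 6 fell, with a median log2 fold change of −1.04. Stat4, which interleukin-12 activates, had 133 and 113 CPM in vitro, against 476 and 475 CPM ex vivo (log2 fold change -1.95 ± 0.14, SE; edgeR adjusted p = 6.33e-06). Stat5a had 30.4 and 24.7 CPM in vitro, against 56 and 62.8 CPM ex vivo. With the trend with gene length removed 6 were lower and 1 higher, with a median of −0.64.

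The brakes of cytokine signalling split. Of 28 tested 7 rose and 16 fell, with a median log2 fold change of −0.34. With the length trend removed 10 rose and 10 fell, with a median of −0.01. Among the SOCS family, Socs2 had 44.6 and 39.2 CPM in vitro, against 6.86 and 4.64 CPM ex vivo (log2 fold change 2.87 ± 0.17, SE; edgeR adjusted p = 2.32e-06). Socs1 had 72 and 68 CPM in vitro, against 16.3 and 22.1 CPM ex vivo, and the reads of Cish itself rose (log2 fold change 3.26 ± 0.24, SE; edgeR adjusted p = 7.28e-06). Socs3 fell to 4.51 and 3.32 CPM, against 15.3 and 15.9 CPM ex vivo. Dusp6, a phosphatase of ERK kinases, had 265 and 274 CPM in vitro, against 41.8 and 55.7 CPM ex vivo. Dusp2, another phosphatase of that family, fell, at 81.1 and 72.8 CPM in vitro, against 195 and 253 CPM ex vivo. The rise of Cish was 4.52 on the log2 scale in wild-type cells, and the difference between genotypes did not pass (interaction -1.26 ± 0.32, SE; edgeR adjusted p = 0.117).

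The Cish promoter is shown because the gene is a known STAT5 target and its reads rose in cells that lack CIS. The window is chr9:107296499-107296688 (plus strand, RefSeq, GRCm38.p6, 160 bases before to 30 after the start), with matches to the STAT5 motif TTCNNNGAA in capitals.
Cish: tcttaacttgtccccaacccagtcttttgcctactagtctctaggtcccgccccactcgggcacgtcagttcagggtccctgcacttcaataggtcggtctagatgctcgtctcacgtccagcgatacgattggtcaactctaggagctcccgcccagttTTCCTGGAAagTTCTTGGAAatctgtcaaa
The 2 matches began at 1 and 12, where 1 is the start. Of the 20 brakes listed with a promoter, 3 held such a match (15%), against 6.95% of the promoters of all tested genes.

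Transcription factors of the NK lineage mostly fell, 24 of 35 being lower and 7 higher, with a median log2 fold change of −1.29. Of the T-box factors that define NK cells, Eomes had 124 and 109 CPM in vitro, against 616 and 589.9 CPM ex vivo, and Tbx21, T-bet, had 132 and 104 CPM in vitro, against 717 and 999.6 CPM ex vivo. Zeb2, which acts in terminal maturation, had 8.44 and 5.65 CPM in vitro, against 176 and 253 CPM ex vivo (log2 fold change -4.92 ± 0.25, SE; edgeR adjusted p = 1.07e-06). Ikzf1, Ikaros, had 347 and 302 CPM in vitro, against 1175 and 1233 CPM ex vivo. Like other named members, these 4 genes were eligible by a large called change or by abundance. Tcf7, a factor of less mature cells, fell as well, to 67.1 and 47.6 CPM, against 362 and 281 CPM ex vivo. Those that rose included Irf4 at 25.8 and 21.2 CPM in vitro, against 3.27 and 3.62 CPM ex vivo, Ahr, the aryl hydrocarbon receptor, at 31.5 and 29.7 CPM in vitro, against 7.23 and 7.08 CPM ex vivo, and Nfil3, a factor of NK development, at 115 and 112 CPM in vitro, against 54.9 and 51.6 CPM ex vivo. Id2, which every NK cell needs, had 1196 and 1291 CPM in vitro, against 1177 and 1059 CPM ex vivo, with no call (edgeR adjusted p = 0.189). With the length trend removed Id2 was called lower (log2 fold change −0.21). Immediate early genes were mixed, 10 of 25 higher and 9 lower, or 5 lower without CIS-null in vitro replicate 2. Fos varied between ex vivo replicates, at 3.85 and 2.32 CPM in vitro, against 16.3 and 101 CPM ex vivo, and its log2 fold change of -4.25 was −2.39 without ex vivo replicate 2. Egr2, a factor induced by receptor signals, rose to 62.7 and 39.1 CPM in vitro, against 7.60 and 11.1 CPM ex vivo.

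Trafficking genes were more often lower than higher. Of 17 integrin genes 13 were lower and 3 higher, with a median log2 fold change of −1.83. Itga2, the CD49b antigen by which the cells had been purified, had 10 and 7.13 CPM in vitro, against 235 and 244 CPM ex vivo (log2 fold change -4.80 ± 0.17, SE; edgeR adjusted p = 2.32e-07). Itga4, which binds VCAM-1, had 86.6 and 66.5 CPM in vitro, against 1581 and 1888 CPM ex vivo, and Itgam, the maturation marker CD11b, had 110.1 and 91.1 CPM in vitro, against 942 and 1259.7 CPM ex vivo. The integrins that rose were Itga1, a collagen receptor, at 184 and 126 CPM in vitro, against 5.39 and 13.7 CPM ex vivo, and the partners Itgb3 and Itgav, which form a vitronectin and osteopontin receptor. Itgb3 had 429.9 and 378 CPM in vitro, against 24.6 and 27.9 CPM ex vivo, and Itgav had 166 and 136 CPM in vitro, against 76.2 and 86.4 CPM ex vivo. Of 22 tested homing and egress receptors 12 fell and 6 rose. Cmklr1, a chemerin receptor, had 3.62 and 2.20 CPM in vitro, against 207 and 426 CPM ex vivo (log2 fold change -6.76 ± 0.41, SE; edgeR adjusted p = 2.62e-06). Cxcr6, the receptor of CXCL16 on tissue lymphocytes, was higher, at 629 and 651 CPM in vitro, against 22.7 and 25.4 CPM ex vivo, and Cd69, an activation antigen that opposes egress, to 333 and 299 CPM, against 34.3 and 25.7 CPM ex vivo.

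Among 15 markers of NK maturation 8 fell and 6 rose. Spn, CD43, had 573 and 516 CPM in vitro, against 2079.7 and 2384 CPM ex vivo. Kit, the receptor of stem cell factor, had 421 and 363 CPM in vitro, against 125 and 93.9 CPM ex vivo. Thy1, CD90, had 1485 and 1341 CPM in vitro, against 308 and 218 CPM ex vivo, and Ly6a, Sca-1, had 129.8 and 151 CPM in vitro, against 9.63 and 3.70 CPM ex vivo. These 3 genes were higher in vitro in both replicates. Of 12 tested markers of other innate lymphoid cells 8 rose and 4 fell, and the most abundant of those that rose, Cxcr6, Tnfsf10 and Itga1, are given above. Il22, a cytokine of group 3 innate lymphoid cells, had too few counts to be tested. Neutrophil markers were low: 8 had too few counts, and of 8 tested 5 fell and 2 rose, Ctsg and Mmp9. Mmp9, a gelatinase, rose to 101 and 84.9 CPM, against 2.12 and 1.38 CPM ex vivo. Of the basophil and mast cell markers 8 of 11 fell and 3 rose: Kit, Cpa3 and Mcpt8. Mcpt8, a protease of basophils, had 29.9 and 49.4 CPM in vitro, against 3.45 and 1.89 CPM ex vivo, while Gata2, Fcer1a and Ms4a2 were at 0 counts in vitro. Of 9 tested dendritic cell markers 3 rose and 5 fell, and Xcr1, the receptor of XCL1, was among those that rose, at 17.9 and 16.3 CPM in vitro, against 0.967 and 1.02 CPM ex vivo.

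T cell markers gave a split. Of 19 tested 7 rose and 6 fell. The CD3 chains rose: Cd3g had 496 and 449.8 CPM in vitro, against 11.2 and 7.04 CPM ex vivo (log2 fold change 5.70 ± 0.23, SE; edgeR adjusted p = 3.6e-07). Cd3d had 241 and 272 CPM in vitro, against 18.9 and 7.12 CPM ex vivo, and Cd3e had 86.6 and 68.8 CPM in vitro, against 5.85 and 4.96 CPM ex vivo. The coreceptors of T cells were low in both states: Cd4 had 0 and 0.0400 CPM in vitro, against 3.87 and 1.30 CPM ex vivo, and Cd8a had 9.02 and 6.21 CPM in vitro, against 2.58 and 0.944 CPM ex vivo. The call on Cd8a was lost without in vitro replicate 1 (log2 fold change 1.83), in vitro replicate 2 (2.37) or ex vivo replicate 2 (1.56). The T cell list as a whole summed to 1163 and 1147 CPM in vitro, against 805.9 and 650.9 CPM ex vivo.

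Survival genes were more often higher. Of 16 BCL2 family genes 10 rose and 2 fell, with a median log2 fold change of 0.74. Bcl2a1d, a survival gene whose reads may be shared with its paralogs, had 36.6 and 47.2 CPM in vitro, against 3.64 and 3.66 CPM ex vivo. Bax, a killer member, rose as well, to 181 and 193 CPM, against 52.6 and 47 CPM ex vivo, and Mcl1, on which NK cells depend, had 418 and 418 CPM in vitro, against 497 and 420.0 CPM ex vivo, with no call (edgeR adjusted p = 0.279). Autophagy genes fell in 14 of 30 cases and rose in 5. Tfeb, a factor for lysosome genes, fell, at 10.4 and 8.37 CPM in vitro, against 63.6 and 75.2 CPM ex vivo, whereas Gabarapl1, an ATG8 protein, rose, at 72.9 and 79.8 CPM in vitro, against 21.6 and 16.1 CPM ex vivo. MHC class I genes were near the shares over all genes, 8 of 20 higher and 6 lower. H2-D1 had 2538 and 2376 CPM in vitro, against 3663 and 3284 CPM ex vivo, and Psmb8, an immunoproteasome subunit, had 729 and 811 CPM in vitro, against 419 and 393 CPM ex vivo. Of 36 interferon-stimulated genes 9 rose and 15 fell. Ifit2, which binds viral RNA, fell to 5.97 and 4.93 CPM in vitro, against 46.3 and 48.1 CPM ex vivo. Ifitm1, an antiviral membrane protein with close paralogs, rose to 516 and 743 CPM in vitro, against 9.07 and 5.04 CPM ex vivo. Metallothioneins, small zinc-binding proteins, rose in both tested forms: Mt1 had 182 and 258 CPM in vitro, against 0.507 and 0.865 CPM ex vivo, and Mt2 had 91.7 and 135 CPM in vitro, against 0 and 0.0787 CPM ex vivo. In the whole zinc list 9 of 17 rose and 5 fell (3 fell with the compared libraries fitted alone, and 1 with the length trend removed), and the transporter Slc39a14 had 159 and 183 CPM in vitro, against 47 and 42.7 CPM ex vivo.

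Set beside wild-type cells, 7669 genes were called in the same direction in both genotypes. They made 80.4% of the 9539 calls in CIS-null cells and 91.4% of the 8395 calls in wild-type cells (63.7% of genes tested). A further 1845 genes were called in CIS-null cells only and 701 in wild-type cells only, which does not show that the genotypes differ in those genes. In the test of the difference, the interaction, 2586 genes (19.6%) had an unadjusted p under 0.05. A gene that this test did not call is not shown to change alike in both genotypes. The interaction called 18 genes (0.137%), 7 with the higher change in CIS-null cells (0.0531%) and 11 with the lower (0.0834%). These counts moved with every library left out: they were 77 and 301 without CIS-null in vitro replicate 1, 1 and 5 without in vitro replicate 2, 96 and 258 without CIS-null ex vivo replicate 1, and 2 and 6 without ex vivo replicate 2. Without a wild-type library they lay between 1 and 20 higher and 5 and 21 lower. In 25 genes the changes were called in both genotypes with opposite signs, and 7 of these passed the interaction. Of those 7, 5 are Xist and the Y-linked genes, and the others are Sdc4 and Tcf4. With the trend with gene length removed, Tcf4 lost its culture call in CIS-null cells (log2 fold change −0.03). Among the genes called in the same direction the change was the larger in CIS-null cells for 5736 (74.8%), with a median absolute log2 fold change of 1.23, against 0.95 in wild-type cells. Across genes, the Spearman correlation of the culture change with gene length was −0.307 in CIS-null and −0.226 in wild-type cells. The part of length, and of the sex-linked difference, in the larger changes was not tested.

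**Figure D4:**
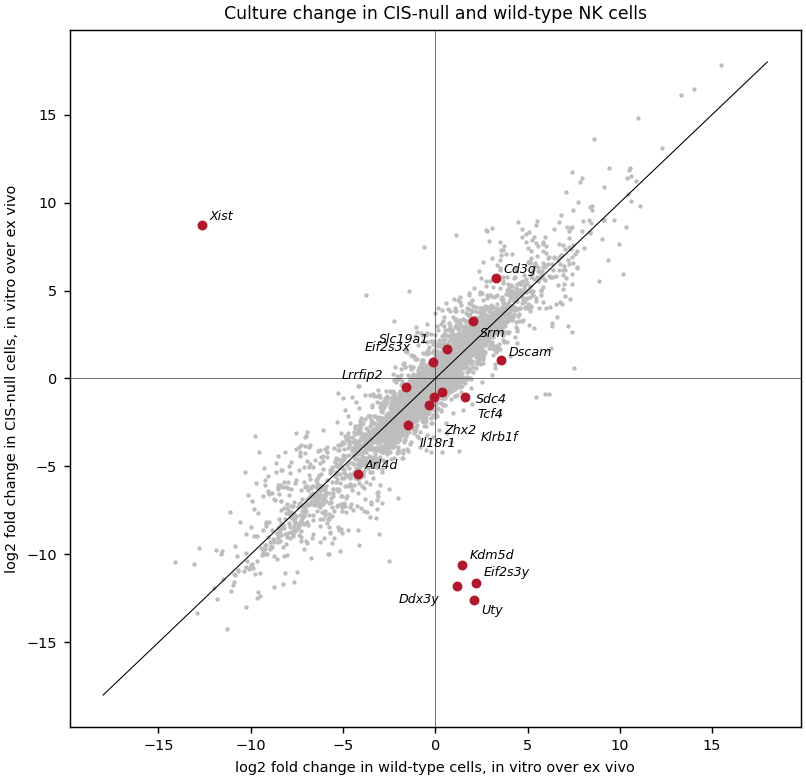
Log2 fold change on culture of each tested gene in CIS-null cells (vertical axis) against wild-type cells (horizontal axis), with the line of equality. Red points with names are the genes whose changes differed between genotypes by edgeR's interaction test, of which the predicted gene Gm2223 is not marked. Most genes follow the line, and Xist (8.73 in CIS-null cells, −12.62 in wild-type cells) and the Y-linked genes lie far from it.

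Of the 18 genes with a called difference, 5 are Xist and the Y-linked genes and 1 is the predicted X-linked gene Gm2223, which leaves 12. Sdc4, a heparan sulphate proteoglycan, had 34.9 and 26.9 CPM in vitro, against 67.5 and 62.7 CPM ex vivo in CIS-null cells, and 84.6 and 83.7 CPM in vitro against 25.7 and 30 CPM ex vivo in wild-type cells. It fell in CIS-null cells and rose in wild-type cells, with log2 fold changes of -1.07 in CIS-null and 1.6 in wild-type cells, and the difference was -2.67 ± 0.19 (SE; edgeR adjusted p = 0.000915). Cd3g reached 496 and 449.8 CPM in CIS-null in vitro libraries and 130.3 and 147 CPM in wild-type in vitro libraries, while ex vivo it had 11.2 and 7.04 CPM in CIS-null and 12.5 and 15.6 CPM in wild-type libraries (difference 2.39 ± 0.28, SE; edgeR adjusted p = 0.0296). Srm, the spermidine synthase, had 117 and 120.1 CPM in CIS-null and 53 and 58.7 CPM in wild-type in vitro libraries (difference 1.26 ± 0.16, SE; edgeR adjusted p = 0.0389). Il18r1 fell further in CIS-null cells, to 71.8 and 71.2 CPM, against 178 and 149 CPM in wild-type cells in vitro (difference -1.22 ± 0.15, SE; edgeR adjusted p = 0.0296). Klrb1f, an NKR-P1 receptor, had 109 and 109.8 CPM in CIS-null and 222 and 227 CPM in wild-type in vitro libraries, and Dscam, a cell adhesion molecule, had 3.82 and 3.76 CPM in CIS-null and 21.1 and 18.9 CPM in wild-type in vitro libraries. The differences were -0.99 for Klrb1f and -2.52 for Dscam. The others were Slc19a1, a folate carrier, Lrrfip2 and the X-linked translation factor Eif2s3x with higher changes (1.05, 1.11 and 1.03), and Zhx2, Tcf4 and Arl4d with lower changes (-1.20, -1.13 and -1.25). Of these 12 genes, Sdc4 kept its call in every alternative fit, and the others lost it in at least 1 fit that left out a library.

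Culture calls in CIS-null cells moved with gene length. In the shortest of 4 equal classes of tested genes, with at most 1608 bases of exon, the median log2 fold change was 0.55, with 53.2% higher and 17.6% lower. In the next 2 classes the medians were 0.09 and −0.22. In the longest, above 4124 bases, it was −0.58, with 19.0% higher and 58.6% lower. Wild-type cells gave the same order of medians, with 0.38 in the shortest class and −0.31 in the longest. Length also went with differences between replicates: across genes, the log ratio of replicate 1 over replicate 2 had a Spearman correlation with length of 0.453 in CIS-null in vitro and −0.372 in CIS-null ex vivo libraries, as a description over genes that are not independent. With each library's trend removed 4913 genes were higher and 4478 lower, and 8027 of the 9539 calls remained in the same direction.

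**Figure D5:**
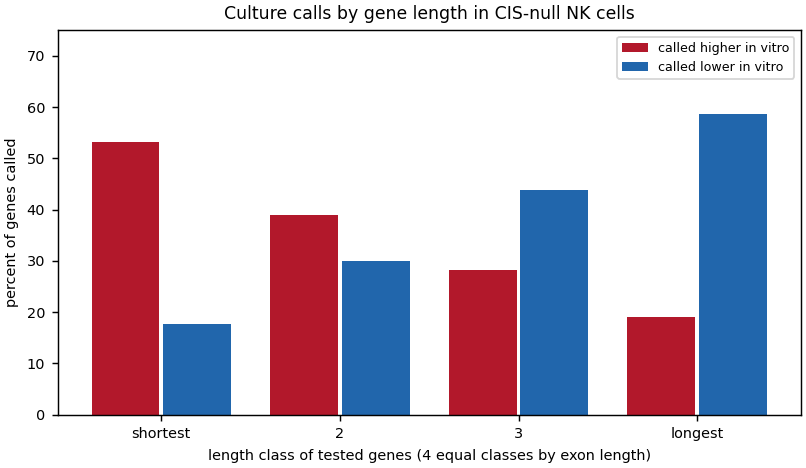
Percent of tested genes called higher (red) and lower (blue) in CIS-null in vitro over ex vivo libraries, in 4 equal classes of exon length. The share called higher is 53.2% in the shortest and 19.0% in the longest class, and the share called lower is 17.6% in the shortest and 58.6% in the longest.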

How the data were processed

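RNA was sequenced from 8 libraries of NK cells, 2 in each of 4 groups. The authors' deposited count matrix holds whole-number read counts per gene with gene lengths, and the submitters' processing notes name Subread, featureCounts, limma, GRCm38 and mm10. Strand setting and treatment of reads shared between genes are not given in the sources used here, so paralogs and overlapping or antisense genes are uncertain. The deposited log2 RPKM tables cover fewer genes, and their 8 distributions are identical in shape. They served as an alternative only.

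Counts were tested with edgeR 4.0.16 in R 4.3.3: filterByExpr by group (minimum 10 counts, total 15), TMM scaling, and a quasi-likelihood fit over all 8 libraries on 4 group means, which leaves 4 residual degrees of freedom, Benjamini-Hochberg adjustment over 13184 genes and a threshold of 0.05. The contrasts were CIS-null in vitro minus ex vivo, the same in wild-type cells, and their difference (interaction). Both genotype contrasts are separate libraries of the same fit. Standard errors (SE) were derived from each fold change and its F statistic. The fit was run on simulated data with known changes in a small part of the genes and no trend with length. That run does not cover changes as broad as those here. Where a group had 0 counts, folds are bounds from 3 counts over the group, and ratios with 1 to 3 counts carry 95% counting intervals, which cover counting error only.

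Alternatives were RLE and library total scaling, other filters, DESeq2 1.42.0, limma 3.58.1 (voom, and log2 RPKM), the compared libraries alone, replicate blocks, each library left out, genes left out, and removal of each library's trend with length. Members and lists were chosen with earlier results of these data known. Up to 5 passing members per direction and the 3 most abundant of each list were eligible to be named. So were Cish and sex-linked genes, the interaction genes, the 6 most abundant genes with no call, and the 12 largest changes per direction. Those 12 came from called genes with a mean of at least 20 CPM over the CIS-null libraries and no overlap between states. Sex-linked genes, predicted genes and immunoglobulin or T cell receptor segments were left out of the 12. Cdk1, Hmgcs1, Mki67, Cenpf, Incenp, Smc2 and Smc4, and the markers left out of sums, were chosen after their values were seen. Promoters came from a RefSeq table (GRCm38.p6), which held 10007 of the tested genes. Some members of the lists are counted but not reported by name here.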

Additional observations from a re-analysis of the deposited data

Results flagged for a closer look

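The culture change differed between CIS-null and wild-type cells, by edgeR's interaction test, in 18 genes, with 7 having the higher and 11 the lower log2 fold change in CIS-null cells. Sex-linked transcripts differed the most: Xist by 21.35, Eif2s3y by −13.83, Ddx3y by −12.99, Kdm5d by −12.06 and Uty by −14.71 on the log2 scale. Xist was abundant in the CIS-null in vitro and wild-type ex vivo libraries. The Y-linked genes were near 0 in the CIS-null in vitro libraries and present in the other 6, the wild-type ex vivo libraries included. Genes with the higher change in CIS-null cells were Cd3g (2.39), Srm (1.26), Lrrfip2 (1.11), Slc19a1 (1.05) and, both X-linked, Eif2s3x (1.03) and the predicted gene Gm2223 (1.11). Genes with the lower change were Sdc4 (−2.67), Dscam (−2.52), Arl4d (−1.25), Il18r1 (−1.22), Zhx2 (−1.20), Tcf4 (−1.13) and Klrb1f (−0.99). The part of the sex-linked difference in the other genes was not tested.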

How the results depend on the processing

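With all tested genes counted, 4594 were higher and 4945 lower, and under the other scalings, filters, tests and left-out libraries both counts stayed within 1.5 times of these. Leaving out each library gave 4086 to 4601 higher and 4214 to 4885 lower genes. Asking for at least 2-fold left 2479 and 2732. Library totals in place of TMM moved the median log2 fold change of all genes to −0.17, against −0.05. Interaction counts were less stable than the culture counts, 7 higher and 11 lower: library totals gave 4 higher, no filter 37 and 38, DESeq2 219 and 374, removal of the length trend 65 and 72, leaving out immunoglobulin, haemoglobin, mitochondrial and T cell receptor genes 11 higher, and no X- and Y-linked genes 0 and 1. limma on log2 RPKM also gave 0 and 1, and leaving out each library gave 1 to 96 higher and 5 to 301 lower. Across genes, deviations from the group mean correlated at −0.232 to 0.146 between groups for libraries that share a replicate number. With 2 libraries a group this cannot show whether the numbers pair animals or batches, which the labels do not give. With the replicate block the interaction called 1 and 5 genes and the culture contrast 4455 and 4802. The crossed pairing of the CIS-null libraries, added after seeing the data, gave 32 and 47 and, for culture, 4677 and 5032. Named genes reversed with the length trend removed were Id2 (−0.21) and Ubtf (0.04), and Gzma with log2 RPKM (−0.07). The causes were not tested. A stricter filter on low levels left 10 of 20 called B cell markers and 13 of 20 called monocyte and macrophage markers. The design has 2 libraries a group, of unknown origin, and culture of CIS-null cells cannot be told apart from the sex-linked difference between its libraries.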
